A study of Rattus norvegicus with 30 samples.

Results

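Wide intervals of trimethylated histone H3 lysine 4 (H3K4me3) that were listed in the embryonic rat cortex under one maternal diet, and had no counterpart under the other, are the regions described here. They were selected on their measured width and on their overlap with the other list. An interval was taken when it was at least 600 bp wide and no interval of the other diet's H3K4me3 list overlapped it by 1 bp or more. In the control list 6407 of 39042 intervals of that width (16.4%) met the rule, and in the HFD list 4880 of 35401 (13.8%). Together these 11287 intervals came from 220975 distinct H3K4me3 intervals of any width, 113056 in the control list and 107919 in the HFD list. They are called control-only and HFD-only intervals below, and the wide intervals that did overlap the other diet, 32635 in the control list and 30521 in the HFD list, are called shared.

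H3K4me3 marks the start sites of genes that are active or held ready for activity. H3K27me3 is laid down by the Polycomb machinery and marks silenced genes, and in embryonic tissue both marks can lie on the same promoter. H4K16Ac is an acetyl mark of open chromatin, while antibodies to total H3 and pan H4 recover the histones whatever their modification and so report on histone occupancy and recovery.

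The data came from Wistar rats. Dams were on normal chow (control) or became obese on a high-fat diet (HFD), were mated with healthy males, and the cortex of their E14.5 embryos was taken for ChIP-seq with 5 antibodies. There were 30 libraries, 3 for each antibody and diet, each from the pooled frontal-lobe cortices of a litter, and the deposited list of each antibody and diet, 10 lists in all, was called on its 3 libraries together. For 1 library, control total H3 replicate 3, the title names the control diet and the treatment label names HFD. It was taken as control and cannot be separated from its list.

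With 1 list per antibody and diet there was no spread between replicates, so no difference between the diets could be tested. Shares carry 95% Wilson intervals that cover counting error only. The tissue label was not checked against marker genes, and the intervals are named by their rn6 coordinates and not by genes, because the gene tables at hand describe another assembly. In these lists each H3K4me3 summit has a fold enrichment, which is its pileup of fragments over the local background, and a −log10 q, where larger values mean stronger summits. The lists were permissive, with q-values reaching 0.499 in both H3K4me3 lists.

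The one-diet intervals were mostly narrow, weak and single-peaked. Because width and absence from the other list chose them, these properties are a description only. Control-only intervals had a median width of 722 bp (quartiles 651 and 840, widest 2049) and HFD-only intervals one of 715 bp (648 and 833, widest 2282), against 898 and 874 bp in the shared intervals of the control and HFD lists. Their median fold enrichment was 3.14 in control-only and 3.34 in HFD-only intervals, where shared intervals reached 6.47 and 6.44. The strongest summit of an interval stood on a median pileup of 7 fragments in both groups and of 24 and 23 in the shared intervals of the control and HFD lists. A single summit was found in 96.5% of control-only and 96.5% of HFD-only intervals, but in 75.0% and 74.4% of the shared ones.

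The share of wide intervals missing from the other diet was ordered by strength. In the control list, 62.9% of the intervals with a −log10 q under 1 were control-only, and this share passed through 47.1% between 1 and 2, 34.7% between 2 and 3, 21.4% between 3 and 5 and 7.91% between 5 and 10 to 0.308% at 10 or more. The HFD list followed the same order with 60.4%, 46.1%, 30.9%, 17.6%, 5.51% and 0.127%. Only 55 control-only and 21 HFD-only intervals had a −log10 q of at least 10, whereas 17827 and 16569 shared intervals of the control and HFD lists did. Width gave the same order, since 27.3% of control intervals of 600 to 800 bp were control-only and 0.868% of those of 1500 bp or more, and in the HFD list these shares were 22.3% and 1.45%.

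**Figure D1:**
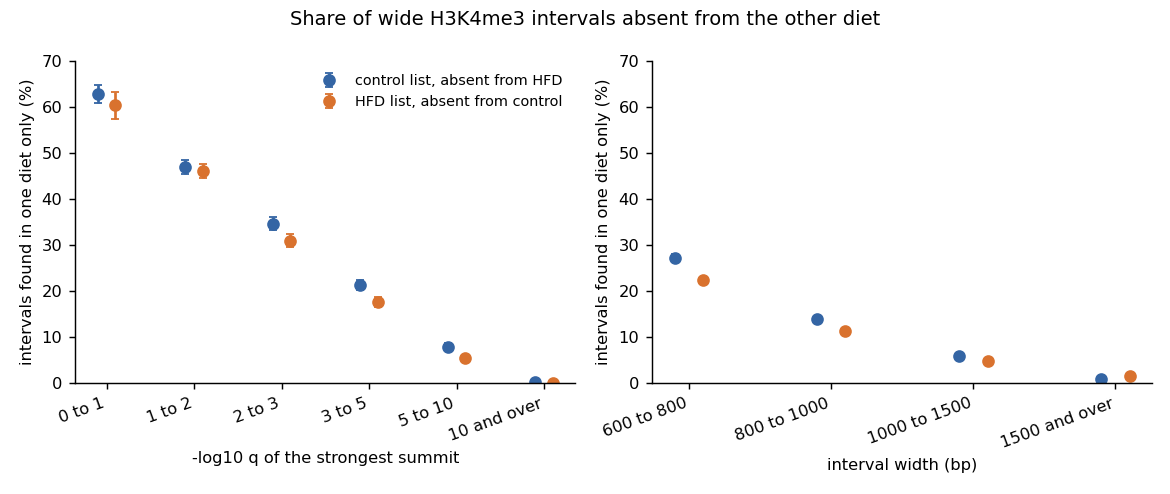
Share of H3K4me3 intervals of 600 bp or more (%, y axis) that had no overlap in the list of the other diet, by the −log10 q of the strongest summit (left) and by width in bp (right). Points are shares of the control list (blue) and the HFD list (orange), bars are 95% Wilson intervals. In the left panel both shares fall from over 60% in the weakest class to under 1% in the strongest.

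Intervals just inside and just outside the width limit were of similar strength. There were 374 control-only and 265 HFD-only intervals of 600 to 609 bp, and 387 and 294 intervals of 590 to 599 bp that lacked a counterpart and were left out for their width, with a median −log10 q of 1.57 inside and 1.57 outside the limit in control and of 1.76 and 1.85 in HFD. Among wide intervals, 43 of the control and 44 of the HFD list were left out for an overlap of at most 50 bp, and 46 and 47 were kept with a gap of at most 50 bp. The strongest interval at the width limit was chr1:65881198-65881797 (600 bp, −log10 q 11.1) among the control-only and chr15:51932702-51933301 (600 bp, 11.5) among the HFD-only intervals. The strongest just outside it, both 599 bp wide, were chr5:61870245-61870843 (8.89) and chr2:76205647-76206245 (5.16).

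The lists differed in depth. The background pileup recovered from the fold enrichments and p-values was 1.23 fragments in the control H3K4me3 list and 1.08 in the HFD list, or 87.7% of control. A q of at most 0.05 was reached by 4731 control-only (73.8%) and 3598 HFD-only intervals (73.7%). The share of all wide intervals at this q was not counted. Shared intervals were much stronger, with a median −log10 q of 12.8 and 12.3 in the control and HFD lists, against 1.94 in control-only and 1.87 in HFD-only intervals. The part of depth in the absence of an interval from the other list was not tested.

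The gap to the other diet was of the size of the spacing within the same list. The nearest H3K4me3 interval of the other diet lay at a median of 5295 bp (quartiles 2101 and 11251) from a control-only and 4547 bp (1498 and 12533) from an HFD-only interval, and the nearest interval of the same list at 5835 and 5527 bp. It lay within 500 bp for 422 control-only (6.59%) and 453 HFD-only intervals (9.28%), so that few lay just beside one. No H3K4me3 interval of the other diet lay within 10000 bp of 1794 control-only (28.0%) and 1418 HFD-only intervals (29.1%). Few lay beside the strongest peaks, as a shared interval with a −log10 q of at least 50 in the same list lay within 10000 bp of 4.93% of control-only and 4.06% of HFD-only intervals, against 7.61% and 4.86% of the shared intervals.

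The other 8 lists were not used to choose the intervals, and as deposited they overlapped many one-diet H3K4me3 intervals in both diets. For H4K16Ac and total H3 these overlaps lay largely below a −log10 q of 5 in the other lists. With a −log10 q of at least 5, H4K16Ac overlapped 7.96% to 9.96% and total H3 21.3% to 27.4% of either group in either diet. Pan H4 then overlapped 26.7% and 19.7% of control-only and HFD-only intervals in control, and 46.5% and 47.2% in HFD. The q of H4K16Ac is averaged over a region and that of the others taken at the summit, so the threshold differs in strictness. No share of all wide intervals at this threshold stands beside these values. H4K16Ac overlapped 5197 control-only intervals in the control list (81.1%, 80.1 to 82.1, against 96% of all wide control intervals) and 4935 in the HFD list (77.0%, 76.0 to 78.0, against 95.5%). It overlapped 3602 HFD-only intervals in the control list (73.8%, 72.6 to 75.0, against 95.4% of all wide HFD intervals) and 4195 in the HFD list (86.0%, 85.0 to 86.9, against 97.6%). With the lists as deposited, the acetyl mark was thus listed more often in the diet that had the H3K4me3 interval and in each list less often than at wide intervals in general. At control-only intervals the order of the diets turned with a −log10 q of at least 5, to 7.96% in control and 8.87% in HFD.

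As deposited, the lists of total H3 and pan H4 followed the same order. Total H3 overlapped 4408 control-only intervals in the control list (68.8% against 92.5% of all wide control intervals) and 4211 in the HFD list (65.7% against 92.5%), a difference of 3.07 percentage points. It overlapped 2726 HFD-only intervals in the control list (55.9% against 91.3% of all wide HFD intervals) and 3518 in the HFD list (72.1% against 94.6%), a difference of 16.2 points. Pan H4 overlapped 4924 control-only intervals in control (76.9% against 94.9%) and 4685 in HFD (73.1% against 94.6%). At HFD-only intervals its counts were 3283 in control (67.3% against 94.1%) and 4007 in HFD (82.1% against 96.9%). At control-only intervals the order of pan H4 also turned with a −log10 q of at least 5, to 26.7% in control and 46.5% in HFD, and total H3 was at 27.3% and 27.4%. With the lists as deposited, the gap between the diets was wider at HFD-only than at control-only intervals for H4K16Ac, total H3 and pan H4.

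H3K27me3 was listed more often in control whichever diet had the H3K4me3 interval. It overlapped 1599 control-only intervals in the control list (25.0%, 23.9 to 26.0, against 73.7% of all wide control intervals) and 728 in the HFD list (11.4%, 10.6 to 12.2, against 53.8%). At HFD-only intervals the order of the lists was the same, with 1213 in control (24.9%, 23.7 to 26.1, against 76% of all wide HFD intervals) and 727 in HFD (14.9%, 13.9 to 15.9, against 58.3%). Both groups thus carried H3K27me3 far less often than wide intervals in general, and more often in the control list. The HFD list of H3K27me3 was also the shorter one, with 49072 regions against 57604.

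**Figure D2:**
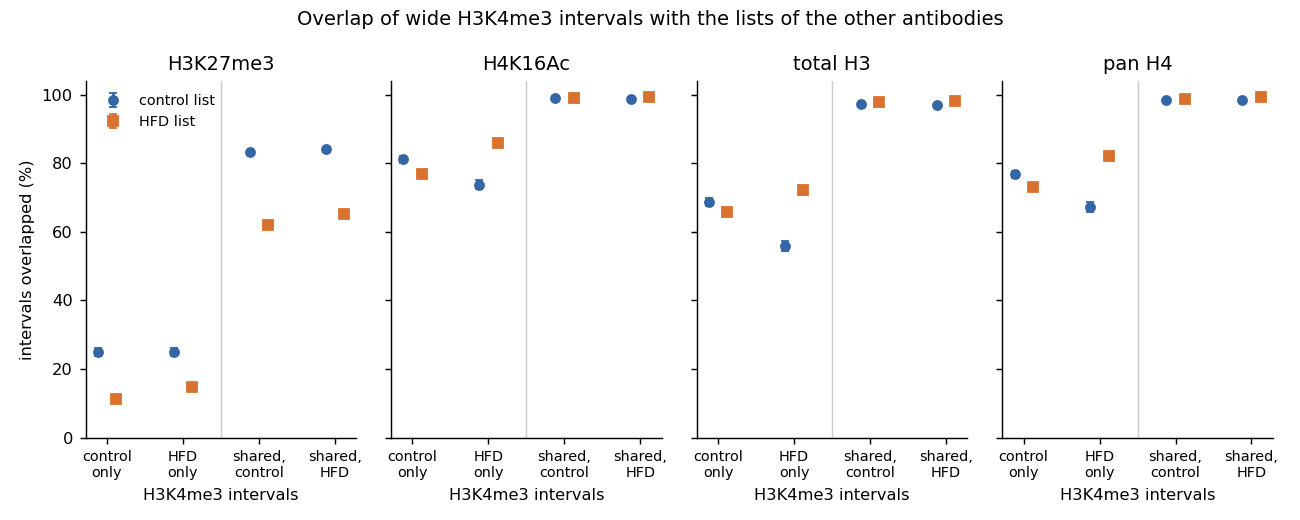
Share of wide H3K4me3 intervals (%, y axis) overlapped by at least 1 bp by the control (blue circles) and HFD (orange squares) list of each other antibody, with 95% Wilson intervals. H4K16Ac, total H3 and pan H4 overlap 55.9% to 86.0% of the one-diet intervals and at least 96.9% of the shared ones, and H3K27me3 is listed more often in control in all 4 sets.

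Weaker intervals are overlapped less often whatever their diet, so the one-diet intervals were also set beside shared intervals of the same strength. Among intervals with a −log10 q of 1 to 2, H4K16Ac overlapped 81.8% of 1887 control-only intervals in the control list and 76.6% in the HFD list, against 96.1% and 97.2% of 2123 shared control intervals. In that class total H3 overlapped 50.6% of 1901 HFD-only intervals in the control list and 66.7% in the HFD list, against 86.7% and 91.3% of 2221 shared HFD intervals. H3K27me3 overlapped 21.9% of the control-only intervals of this strength in the control list (20.1 to 23.8) and 46.9% of the shared ones (44.8 to 49.0). Less frequent overlap at one-diet intervals was therefore also present at matched strength.

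Among control-only intervals the overlap with H3K27me3 in control rose with strength. In the control list the mark overlapped 10.7% of control-only intervals with a −log10 q under 1, 21.9% between 1 and 2, 25.1% between 2 and 3, 35.7% between 3 and 5, 51.0% between 5 and 10 and 42 of the 55 (76.4%, 63.7 to 85.6) at 10 or more. In the HFD list it overlapped 6.53% of the weakest class and 8 of these 55 (14.5%, 7.56 to 26.2). Of the 55, 35 (63.6%) carried H3K27me3 in control only and 1 (1.82%) in HFD only. Of these, 97.2% (85.8 to 99.5) fell on the control side. Among 17827 shared control intervals of this class the counts were 3277 (18.4%) and 60 (0.337%), or 98.2% on the control side. The side was thus not particular to control-only intervals. Pan H4 was in control only at 11 of the 55 and in HFD only at 0, against 27 and 3 of the shared ones. Total H3 was at 11 and 3, against 56 and 28, and H4K16Ac at 4 and 2, against 39 and 14. The control list overlapped 29.4% of the weakest and 99.3% of the strongest class of shared control intervals as well, but 81.2% of that strongest class still carried the mark in HFD. This open class was not matched, as shared control intervals reached a −log10 q of 3986 and control-only ones 36.7. Between 5 and 10 the HFD list overlapped 17.0% of control-only and 54.7% of shared control intervals. The strongest HFD-only intervals gave no such split between the diets, since 11 of 21 were overlapped by H3K27me3 in control and 10 of 21 in HFD.

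Peaks of the other antibodies were centred on the one-diet intervals. At control-only intervals H4K16Ac covered 70.7% of the positions in the central 200 bp in the control list and 65.8% in the HFD list, against 12.5% and 11.3% at 4500 to 5000 bp from the centre. At HFD-only intervals the centre was covered to 63.4% in control and 76.2% in HFD. Total H3 covered 41.2% and 52.8% of the centre of HFD-only intervals and pan H4 50.5% and 66.2%, in control and HFD. The lists of the diet without the H3K4me3 interval thus still showed a central peak for H4K16Ac, total H3 and pan H4. H3K27me3 was centred too, covering 17.1% of the centre of control-only intervals in control and 6.61% in HFD, and 16.8% and 8.65% at HFD-only intervals.

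**Figure D3:**
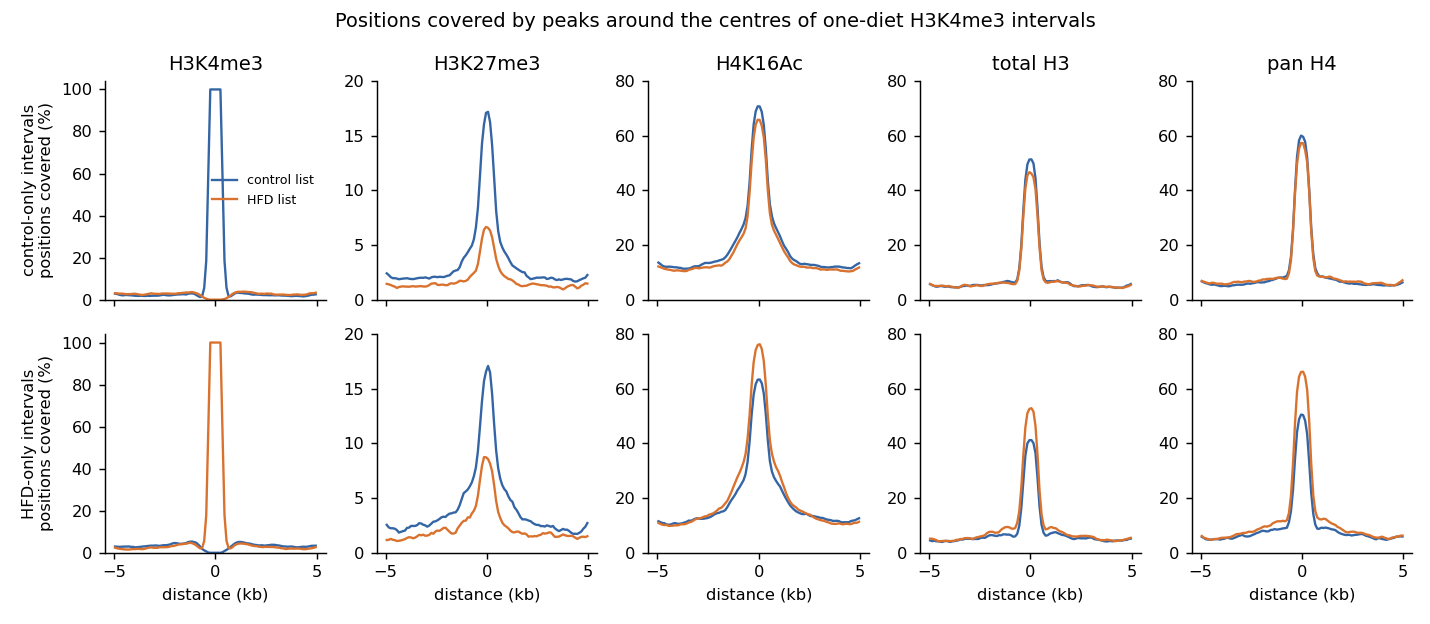
Positions covered by peaks (%, y axis, scale differs between antibodies) in 100 bp steps up to 5000 bp from the centre of control-only (top) and HFD-only (bottom) H3K4me3 intervals, for the control (blue) and HFD (orange) list of each antibody. The H3K4me3 panels show the rule itself, with 100% and 0% at the centre, while each other antibody has a central peak in both diets.

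To see on which side the disagreements fell, only intervals were counted that exactly 1 of an antibody's 2 lists overlapped. H4K16Ac was listed in control alone at 617 control-only intervals (9.63% against 2.05% of all wide control intervals) and in HFD alone at 355 (5.54% against 1.51%), so 63.5% (60.4 to 66.4) of these 972 fell on the control side. At HFD-only intervals it was listed in HFD alone at 798 (16.4% against 3.05% of all wide HFD intervals) and in control alone at 205 (4.20% against 0.859%), and 79.6% (77.0 to 81.9) fell on the HFD side. Shared intervals served as the comparison, because the 2 lists of an antibody also differ in depth and length. Among shared control intervals 43.9% (39.2 to 48.7) fell on the control side, and among shared HFD intervals 73.9% (69.2 to 78.0) on the HFD side.

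For control-only intervals the side therefore lay with control beyond the shared intervals, whereas for HFD-only intervals the 2 ranges for H4K16Ac overlapped. Total H3 was listed in control alone at 832 control-only intervals (13.0% against 3.15%) and in HFD alone at 635 (9.91% against 3.15%), giving 56.7% (54.2 to 59.2) on the control side against 40.1% (37.1 to 43.2) in shared intervals. At HFD-only intervals total H3 was in HFD alone at 1126 (23.1% against 5.06%) and in control alone at 334 (6.84% against 1.71%), giving 77.1% (74.9 to 79.2) on the HFD side against 71.1% (68.1 to 73.9). At control-only intervals total H3 thus also lay with control beyond the shared intervals, and at HFD-only intervals with HFD by a smaller step. Pan H4 was in control alone at 808 control-only intervals (12.6% against 2.73%) and in HFD alone at 569 (8.88% against 2.42%), giving 58.7% (56.1 to 61.3) on the control side against 40.4% (36.7 to 44.3) in shared ones. At HFD-only intervals it was in HFD alone at 973 (19.9% against 3.9%) and in control alone at 249 (5.10% against 1.1%), giving 79.6% (77.3 to 81.8) on the HFD side against 74.4% (70.6 to 77.8), ranges that overlapped.

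These sides changed with the threshold of the other lists. When only intervals of the other 8 lists with a −log10 q of at least 5 were used, the control side at control-only intervals dropped to 45.3% for H4K16Ac, 49.8% for total H3 and 19.0% for pan H4. Shared control intervals moved as well, to 35.2%, 46.0% and 10.4%. At HFD-only intervals the HFD side was then 58.7%, 61.5% and 91.2%, against 66.3%, 58.4% and 92.0% in shared HFD intervals. At this threshold the majority on the control side was therefore gone, but for H4K16Ac and pan H4 control-only intervals stayed further on that side than shared ones. The cause was not tested.

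H3K27me3 disagreements fell on the control side in every set. It was listed in control alone at 1301 control-only intervals (20.3% against 24.3% of all wide control intervals) and in HFD alone at 430 (6.71% against 4.4%), so that 75.2% (73.1 to 77.1) fell on the control side. At HFD-only intervals it was in HFD alone at 451 (9.24% against 4.8% of all wide HFD intervals) and in control alone at 937 (19.2% against 22.5%), and 32.5% (30.1 to 35.0) fell on the HFD side. Among shared intervals these sides were 86.4% for the control list and 15.1% for the HFD list. Both groups thus lay further towards HFD than shared intervals, which was the diet of the H3K4me3 interval for HFD-only ones alone. Between a −log10 q of 1 and 2 the steps were smaller. The control side was then 72.0% at control-only and 74.6% at shared control intervals, and the HFD side 34.5% at HFD-only and 28.6% at shared HFD intervals. Without matching for strength, H3K27me3 in HFD alone, where H3K4me3 was missing, was thus more frequent at control-only than at all wide control intervals. H3K27me3 in control alone was slightly less frequent at HFD-only than at all wide HFD intervals. At matched strength the first order turned in each class below a −log10 q of 5. With a −log10 q under 1, H3K27me3 in HFD alone was at 4.42% of control-only and 9.87% of shared control intervals. Between 3 and 5 these shares were 6.77% and 9.35%. From 5 up they kept the unmatched order, with 8.13% and 5.36% between 5 and 10. H3K27me3 in control alone was less frequent at HFD-only than at shared HFD intervals in each class below 10. The shares were 14.4% and 26.3% under 1, 20.4% and 34.7% between 2 and 3, and 25.6% and 31.4% between 5 and 10. At 10 or more the order turned, with 4 of 21 HFD-only intervals (19.0%) and 15.3% of the shared ones.

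**Figure D4:**
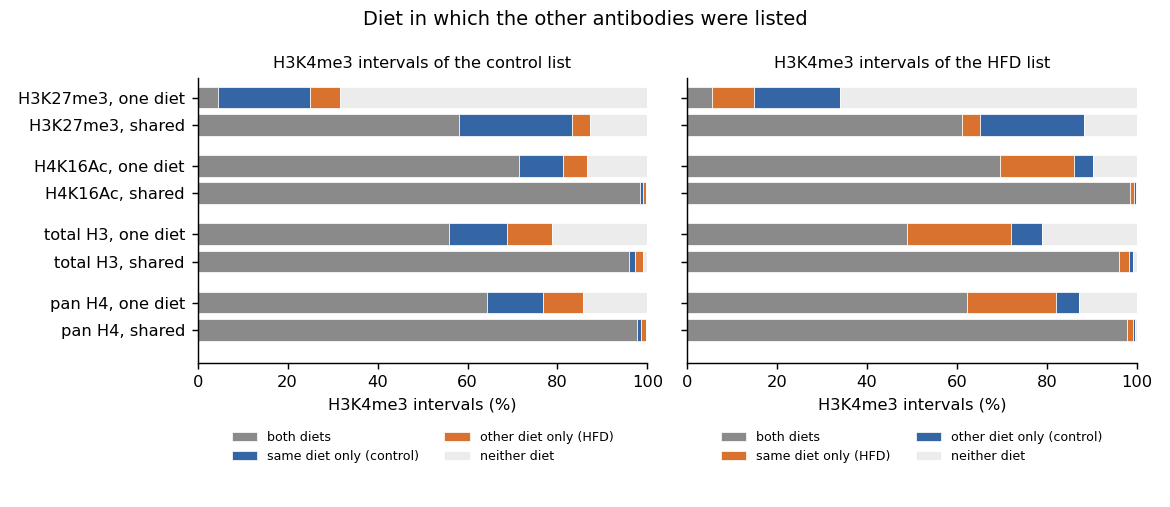
Wide H3K4me3 intervals (%, x axis) of the control list (left) and the HFD list (right) by the diet in which each other antibody overlapped them, for one-diet and shared intervals. Grey is both diets, blue control alone, orange HFD alone and pale grey neither. One-diet intervals have wider coloured segments than shared ones for H4K16Ac, total H3 and pan H4, and the longest pale segments for H3K27me3.

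Intervals with H3K27me3 were overlapped more often by the other antibodies. Among control-only intervals with H3K27me3 in both diets, 298 in number, pan H4 overlapped 92.6% and total H3 88.6% in control, against 71.0% and 62.0% of the 4378 intervals with H3K27me3 in neither diet. Among HFD-only intervals, the 276 with H3K27me3 in both diets had pan H4 at 93.5% and total H3 at 91.3% in HFD, and the 3216 with it in neither had 77.1% and 65.4%. The order was the same in shared control intervals, where pan H4 in control was at 99.8% with H3K27me3 in both diets and 92.6% with it in neither, and total H3 at 99.4% and 88.7%. The classes also differed in strength, with a median −log10 q of 2.51 and 1.57 among control-only intervals.

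Combining the lists, a change of all 3 remaining antibodies with H3K4me3 was rare. H4K16Ac, total H3 and pan H4 were all listed in control and none of them in HFD at 82 control-only intervals (1.28% against 0.236% of all wide control intervals). The same in the HFD direction held for 144 HFD-only intervals (2.95% against 0.545% of all wide HFD intervals). The opposite combination was found at 33 control-only (0.515% against 0.151%) and 4 HFD-only intervals (0.0820% against 0.0311%). All 3 were listed in both diets at 3053 control-only (47.7% against 87.1%) and 2007 HFD-only intervals (41.1% against 87.6%). The most frequent combination at one-diet intervals was therefore that of all 3 antibodies in both diets.

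At the extremes, 445 control-only (6.95% against 1.19%) and 219 HFD-only intervals (4.49% against 0.647%) were in none of the other 8 lists, and 232 (3.62% against 48.8%) and 169 (3.46% against 52.7%) were in all of them. The strongest in none were chr5:105728266-105729092 among the control-only intervals (−log10 q 11.6, fold 6.65) and, with equal values, chr13:2392194-2392985, chr18:60691187-60691879 and chr2:226368040-226368671 among the HFD-only ones (3.49, fold 4.33). The strongest control-only interval in all 8 was chr5:114037151-114038116 (966 bp, −log10 q 13.3), 3527 bp from the nearest HFD interval. There H3K27me3 had a fold enrichment of 4.69 in control and 2.60 in HFD, H4K16Ac 4.53 and 4.34, total H3 6.28 and 7.26, and pan H4 6.36 and 8.44. Every antibody but H3K4me3 was thus enriched at this interval in both diets.

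Enrichment could be compared between the diets only where both lists of an antibody held a peak, which leaves out intervals that fell below listing in one diet. The median log2 ratio of the fold enrichment in HFD over control was 0.02 for H4K16Ac, −0.01 for total H3 and −0.02 for H3K27me3 at control-only intervals, and 0.03, 0.07 and 0.03 at HFD-only intervals. Pan H4 was higher in HFD in both groups, by 0.31 and 0.34 on the log2 scale, and by 0.25 in shared control intervals. The median fold of H3K27me3 at the 298 control-only intervals with it in both diets was 2.88 in control and 2.85 in HFD. Shared control intervals had 5.49 and 3.24, a median log2 ratio of −0.68, but were much stronger in H3K4me3, with a median −log10 q of 32.5 against 2.51, so the sets were not matched.

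The strongest control-only intervals included several that no antibody listed in HFD. The strongest was chr7:10957885-10958933 (1049 bp, −log10 q 36.7, fold 9.11, 2 summits), where the control lists of H3K27me3 and pan H4 covered 496 and 427 bp and no HFD list was present. An HFD H3K4me3 interval lay 437 bp away. At chr13:90155160-90155810 (−log10 q 20.0, fold 9.70) H3K27me3, total H3 and pan H4 were listed in control alone, and at chr4:77463196-77463891 (18.7, fold 8.41) total H3 and pan H4 were. Of the other two among the first 5, chr20:3146835-3147781 (19.3, fold 7.12) was in every list except HFD H3K27me3. The last, chr3:68440617-68441334 (20.6, fold 10.1), had H4K16Ac, total H3 and pan H4 in both diets, with pan H4 at a fold of 11.7 in control and 17.1 in HFD.

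The strongest HFD-only intervals had a different makeup. All 5 were overlapped by H4K16Ac and pan H4 in both diets. Chr7:90340608-90341226 (−log10 q 17.5, fold 10.2) and chr14:40587411-40588160 (16.8, fold 8.31) had total H3 in both diets and no H3K27me3, as did the first, a 619 bp interval on an unplaced sequence (30.4, fold 14.9). The remaining ones had little enrichment on a very deep background. Chr1:11973510-11974145 (23.2) had a fold of 1.94 with a pileup of 314 over a background of 162 fragments, and chr5:91136779-91137741 (17.0) a fold of 1.81 with 281 over 154. These were the only HFD-only intervals with a −log10 q of at least 5 and a fold under 2.5, and no control-only interval was of that kind.

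The widest interval of each group lay above the upper quartile of −log10 q in its group (3.02 in control-only, 2.80 in HFD-only). Both were below the median of shared intervals (12.8 in the control and 12.3 in the HFD list). Chr5:138379039-138381087 (2049 bp) was the widest control-only interval with a fold of 4.01 and a −log10 q of 3.27, and chr2:103533250-103535531 (2282 bp) the widest HFD-only one with 4.82 and 5.19. At the former, H4K16Ac covered 1735 bp in control and 325 bp in HFD, total H3 1425 and 0 bp, and pan H4 712 and 382 bp. At the latter, H4K16Ac covered 1833 bp in control and 2112 bp in HFD, total H3 602 and 1575 bp, and pan H4 1849 and 1931 bp. For these 3 antibodies coverage was larger in the diet with the H3K4me3 interval, while H3K27me3 covered 1167 bp of the latter interval in control and 0 bp in HFD.

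H3K27me3 separated further examples. Among control-only intervals with H3K27me3 in HFD alone the strongest was chr1:214865730-214866486 (−log10 q 10.9), where the mark covered 452 bp with a fold of 3.51. Among HFD-only intervals with H3K27me3 in control alone it was chr4:24464074-24464721 (10.7), with 311 bp and a fold of 3.05, and both were overlapped by H4K16Ac, total H3 and pan H4 in both diets. These 2 regions had H3K4me3 in one diet and H3K27me3 in the other. The following were chosen after their values were seen, as the strongest with H4K16Ac, total H3 and pan H4 all in the diet of the H3K4me3 interval alone. At chr1:98048118-98048890 (−log10 q 11.1) H3K27me3 too was in control alone, with 295 bp. At chr9:8883698-8884444 (5.41), an HFD-only interval, H3K27me3 was in neither list.

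The chromosomes did not share evenly in the 2 groups. Over chromosomes 1 to 20, 16.8% of wide control intervals were control-only, with a range from 14.4% on chromosome 18 to 19.0% on chromosome 6. Chromosome X had 82 of 1180 (6.95%, 5.63 to 8.54), below every autosome. In the HFD list 13.6% of wide autosomal intervals were HFD-only, from 11.1% on chromosome 10 to 16.1% on chromosome 12, and chromosome X had 216 of 1292 (16.7%, 14.8 to 18.9), above every autosome although its range overlapped several. Unplaced sequences resembled chromosome X, with 21 of 340 control-only (6.18%, 4.07 to 9.26) and 67 of 406 HFD-only (16.5%, 13.2 to 20.4). The Y chromosome had 0 of 24 control-only and 4 of 27 HFD-only intervals, too few to compare.

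**Figure D5:**
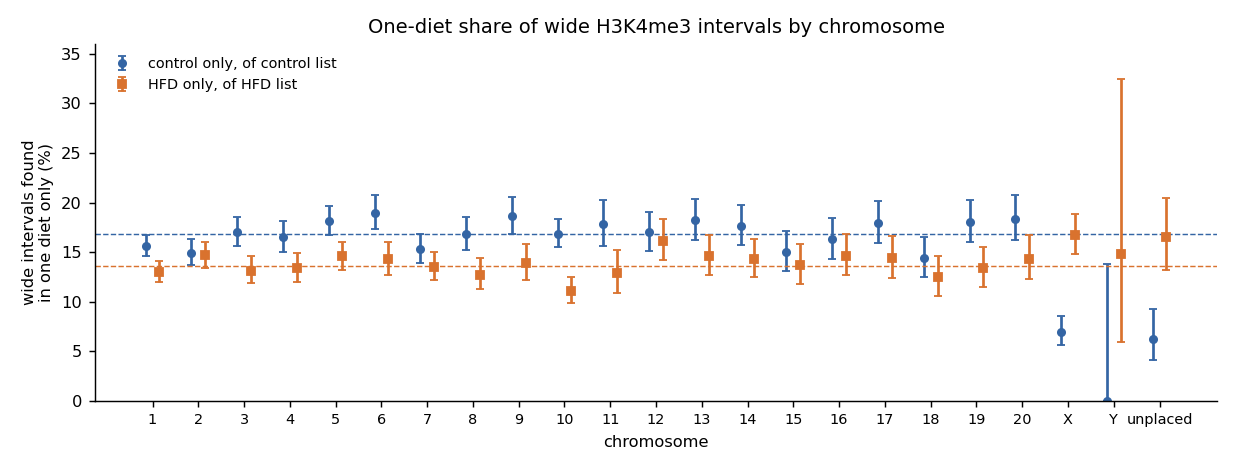
Share of wide H3K4me3 intervals found in one diet only (%, y axis) on each chromosome and on unplaced sequences, for the control list (blue circles) and the HFD list (orange squares), with 95% Wilson intervals and dashed lines at the shares over chromosomes 1 to 20. The control-only share exceeds the HFD-only share on every autosome, and on chromosome X the order is turned, at 6.95% and 16.7%.

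The same chromosomes stood apart in the lists as a whole, and not only in H3K4me3. The number of HFD intervals over control intervals of any width on chromosome X was 1.24 for H3K4me3, 1.16 for H4K16Ac, 1.42 for total H3 and 1.27 for pan H4, while on chromosomes 1 to 20 it was 0.945, 1.00, 1.04 and 0.994. For H3K27me3 the ratios were 0.814 on chromosome X and 0.853 on the autosomes. Of the 216 HFD-only intervals on chromosome X, total H3 overlapped 37.0% in control and 68.1% in HFD, pan H4 57.4% and 85.2%, and H4K16Ac 57.9% and 80.6%. Among shared HFD intervals on chromosome X these shares were 94.1% and 98.3%, 97.6% and 99.3%, and 97.3% and 99.2%. At the 82 control-only intervals on chromosome X the order of the diets was not that of control-only intervals as a whole, with total H3 at 62.2% in control and 73.2% in HFD, pan H4 at 78.0% and 81.7%, and H4K16Ac at 80.5% in both. On chromosome Y the ratios for H3K4me3, H4K16Ac, total H3 and pan H4 were 1.28, 1.44, 1.32 and 1.55, and that for H3K27me3 was 0.795. The lists held only 31 to 118 intervals each on chromosome Y. The sexes of the pooled embryos are not given in the labels, and the part of these X-linked counts in the one-diet intervals was not tested.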

How the data were processed

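For ChIP-seq of the E14.5 cortex the authors used bowtie2 (build rn6) for alignment, and MACS2 and deepTools with the options recommended for them. The option values, duplicates and input are not given in the sources used here. The deposited lists (narrow for H3K4me3, total H3 and pan H4, broad for H3K27me3 and H4K16Ac) hold for each peak a score (10 times −log10 q), a fold enrichment ratio to the local background, a −log10 p-value and a −log10 q-value, all made by the authors with 3 libraries together and averaged over the region in the broad lists. Libraries were grouped by title.

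From these lists, intervals with the same position were counted once, with the values of the strongest summit. Overlap meant at least 1 bp, and shares have 95% Wilson intervals (scipy 1.17.1, run with numpy 2.4.6 and pandas 2.3.3 under Python 3.11.15). Figures used matplotlib 3.10.9. Pileups k and backgrounds b were recovered from the fold, (k + 1) / (b + 1), and the Poisson p, with a whole k within 0.1% for 100% of intervals below the range where p-values saturate. The interval functions gave the known answer for 300 of 300 simulated intervals and the recovery for 1998 of 1998 summits. An interval carries its listed pileup only, so depth in reads is unknown. A planned scaling of the summits to the other diet's depth is not reported, because members had already passed in their own list and rounding down to whole pileups lowered the counts by itself.

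The members and the named-region rule were chosen with earlier results of these data known. Named regions were, in each group, the 5 strongest, the 3 widest, the 3 strongest in all and in none of the other 8 lists, the 3 strongest with H3K27me3 in either diet alone, and those at the width limit, of which the text gives a part. Genes and sequences were not analysed here, because the tables at hand are of GRCr8 and the lists of rn6, and no coordinates were converted. Alternatives were other widths, a 500 bp margin, a −log10 q of at least 5, 50% coverage, a 2500 bp window, lists of equal length and fewer chromosomes. Chromosomes 1 to 20 alone and a local background of at most 2 times that of the list were added after the data were seen.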

Additional observations from a re-analysis of the deposited data

How the results depend on the processing

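The lists hold 1 value per antibody and diet, so leaving out a library was not possible and the precision between litters is unknown. No paired analysis was possible because no test was run and each list pools its 3 libraries. Many intervals were weak, with a lower quartile of −log10 q of 1.24 in both groups, and the part of depth was not tested.

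The numbers of control-only and HFD-only intervals were 22553 and 18307 at a width of at least 400 bp, 2036 and 1496 at 800 bp, 625 and 462 at 1000 bp, and 473 and 302 with a −log10 q of at least 5. They stayed between 5671 and 6386 and between 4049 and 4813 with a 500 bp margin, fewer chromosomes or a low local background.

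The side share is the percentage of disagreements between the lists of an antibody that fell on the diet of the H3K4me3 interval. At control-only intervals it was 72.2% for H3K27me3 and 52.9% for pan H4 at a width of 400 bp, 78.6% for H3K27me3 and 50.9% for total H3 at 1000 bp, and 85.8%, 71.8%, 66.7% and 77.9% for H3K27me3, H4K16Ac, total H3 and pan H4 at intervals with a −log10 q of at least 5. At HFD-only intervals it was, for H4K16Ac, total H3 and pan H4, 70.9%, 69.6% and 73.9% at 400 bp, 85.3%, 84.2% and 85.3% at 800 bp, 92.2%, 89.7% and 90.7% at 1000 bp, and 84.6%, 83.6% and 82.4% with a −log10 q of at least 5.

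With at least 50% of the interval covered, the side share was 78.8% for H3K27me3, 60.7% for total H3 and 54.7% for pan H4 at control-only intervals, and 27.8% for H3K27me3, 75.7% for H4K16Ac and 69.4% for total H3 at HFD-only intervals. With an interval of the other list within 2500 bp it was 69.0%, 53.2% and 64.6% for H3K27me3, total H3 and pan H4 at control-only intervals. At HFD-only intervals it was then 82.6%, 79.4% and 73.7% for H4K16Ac, total H3 and pan H4. For total H3 with this window, shared HFD intervals had 78.1% (74.8 to 81.2), a range overlapping that of HFD-only intervals (76.9 to 81.7). Shared HFD intervals had total H3 at 62.5% with 50% covered and at 67.3% with lists of equal length. When an antibody's longer list was shortened to its shorter one, the share was 67.2% for H3K27me3 and 60.4% for total H3 at control-only intervals, and 43.7% and 74.4% at HFD-only intervals.

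With a −log10 q of at least 5 in the other 8 lists, the majority at control-only intervals turned for H4K16Ac (45.3%, 41.4 to 49.2) and pan H4 (19.0%, 17.3 to 20.7). Total H3 was evenly split within its range (49.8%, 47.3 to 52.3). Shared control intervals had 35.2% (33.8 to 36.6) for H4K16Ac, 10.4% (9.45 to 11.4) for pan H4 and 46.0% (44.3 to 47.6) for total H3. Control-only intervals thus stayed further on the control side for H4K16Ac and pan H4, while the ranges for total H3 overlapped. The cause was not tested. H3K27me3 was then at 100% of 16 intervals at control-only and 0% of 13 at HFD-only intervals. Shared intervals were split alike, at 99.7% of 15273 in the control list and 0.279% of 14716 in the HFD list. This split of H3K27me3 was therefore not particular to one-diet intervals. At HFD-only intervals H4K16Ac, total H3 and pan H4 were at 58.7%, 61.5% and 91.2%.

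With this threshold the shares overlapped at control-only intervals were, in control and HFD, 0.250% and 0% for H3K27me3, 7.96% and 8.87% for H4K16Ac, 27.3% and 27.4% for total H3, and 26.7% and 46.5% for pan H4. At HFD-only intervals they were 0.328% and 0.0615%, 8.18% and 9.96%, 21.3% and 26.4%, and 19.7% and 47.2%. With 50% of the interval covered they were 14.9% and 5.07%, 69.5% and 64.3%, 48.5% and 43.0%, and 58.0% and 55.5% at control-only intervals. At HFD-only intervals they were then 14.9% and 7.03%, 62.4% and 75.7%, 39.5% and 50.4%, and 48.5% and 65.7%. In each of these pairs at 50% coverage the order of the diets was that of the deposited lists. No share of all wide intervals stands beside the values at either setting, so they cannot be called particular to one-diet intervals.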

Other observations

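The one-diet intervals were spread over the genome with few dense stretches. Counted in fixed windows of 1 Mb, the window with the most control-only intervals was chr12:48000001-49000000, with 15 among 52 wide control intervals and 5 HFD-only intervals in the same window. The windows with the most HFD-only intervals were chr15:5000001-6000000, with 12 among 36 wide HFD intervals, and chr2:1000001-2000000, with 12 among 26. In the latter 9 control-only intervals lay as well, so that both groups were found side by side there. The nearest interval of the opposite group lay at a median of 139258 bp from a control-only and 120157 bp from an HFD-only interval.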
